A study of Mus musculus with 6 samples.

Results

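Respiratory complex I (NADH:ubiquinone oxidoreductase) is the L-shaped entry enzyme of the mitochondrial electron transport chain. Its matrix arm takes electrons from NADH through the N module and passes them along iron-sulfur clusters to ubiquinone in the Q module, while its membrane arm pumps protons. A small catalytic core, partly encoded in mitochondrial DNA, is surrounded by accessory subunits that stabilise it, and dedicated assembly factors join the modules without staying in the finished enzyme. In neurons and neuron-like cells the complex is known as a main entry point of electrons for ATP synthesis.

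The complex I genes described here were all rows of the gene count table whose symbol begins Ndufa, Ndufb, Ndufc, Ndufs or Ndufv and a number, together with Ndufab1, Ndufa4l2 and the numbered Ndufaf genes. This rule used symbols and no measured value, but it was set with earlier results of these data known. It gave 45 genes of 24421 gene rows: 7 nuclear core subunits, 29 accessory subunits, 7 Ndufaf assembly factors, and 2 genes named for the complex that are not counted among its subunits, Ndufa4 (a subunit of complex IV) and its paralogue Ndufa4l2. The core subunits encoded in mitochondrial DNA, Ndufb1 and Ndufaf8 were not analysed here.

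RNA was sequenced from Neuro2a, a mouse neuroblastoma line used as a neuron-like model and labelled as wild type. All 6 cultures received an adenovirus (ADV) for 48 h: 3 carried a control short hairpin RNA (ADV-shCtrl, here shCtrl) and 3 a hairpin against Fam172a (ADV-shFam172a, here shFam172a). No untreated cells were among the samples used, so the comparison is between 2 infected groups of 1 cell line. Whether the replicates were separate infections is not in the labels, so p-values cover only the differences among these 6 libraries, part of which may be technical.

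Gene counts summed to between 11250312 and 12820531 per library in shCtrl and between 21690467 and 23409319 in shFam172a. Fam172a, the targeted gene, stood at 18.6, 19.3 and 19.5 CPM (counts scaled by library size and edgeR's TMM factors) in shCtrl and at 9.22, 8.28 and 9.22 in shFam172a, a log2 fold change of −1.10 ± 0.0921 (SE; edgeR adjusted p = 2.44e-12). Of 12 listed sympathoadrenal and neuronal markers 11 were above the filter on low counts, among them the neuronal tubulin Tubb3 at means of 758 and 786 CPM. The markers moved with the knockdown: 6 of the 11 rose and 1 fell at an edgeR adjusted p under 0.05. Over all 12820 genes tested, 17.5% rose and 18.6% fell by the same rule. Th, the enzyme of catecholamine synthesis, stood at 9.28 and 18.7 CPM (log2 fold change 1.004), Hand2 at 256 and 321 (0.33), and the RNA-binding protein gene Elavl4 at 303 and 214 (−0.50). The part of these marker changes in the results below was not tested. Markers of other cell types summed to 43.7 to 44.1 CPM in shCtrl and 45.7 to 47.2 in shFam172a over 14 genes, with the leukocyte gene Ptprc and the astrocyte gene Aqp4 at 0 counts in all 6 libraries. Replicate 3 of shFam172a stood apart within its group: 4.46% of its pairs were set aside for low alignment quality against 6.65% and 7.12% in replicates 1 and 2. In shCtrl this share was 4.83%, 5.14% and 5.83%, so replicates 1 and 2 of shFam172a lay above every shCtrl library. The part of this difference in the results below was not tested. Accessory calls and the sums of accessory subunits, modules and complexes II to V are given below with and without replicate 3 of shFam172a. Median log2 fold changes and values of single genes include all 6 libraries except where stated. Without that library the medians were −0.06 for core, −0.10 for accessory and −0.14 for Ndufaf genes. Between the groups, the ribosomal RNA gene Rn45s stood at 410 to 565 CPM in shCtrl and 793 to 1141 in shFam172a. Pairs in no gene made up 16.4% to 16.6% and 17.2% to 17.9%. The part of these differences in the results below was not tested.

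Upstream sequences were taken from RefSeq's promoter table (build GRCm38.p6), which matched 39 of the 45 genes. They are shown for the assembly factor with the largest fall (Ndufaf4), the subunit with the largest fall (Ndufab1) and the subunit with the largest rise (Ndufv3). Each stretch lies before the RefSeq start site, is written 5′ to 3′ on the gene's strand, and leaves out bases in any GENCODE M21 exon. Capitals mark letters of the motifs searched on both strands: the palindromic core of the nuclear respiratory factor NRF1 site (the first capitals of the Ndufaf4 stretch), the same core with 1 base free, CCGGAAG for ETS factors such as GABPA, AAGATGGCG for YY1, GGGCGG for SP1, and ACGTG and GCGTG for the hypoxia response element. Ndufaf4 is at chr4:24897833-24898082 on the plus strand, Ndufab1 at chr7:122101887-122102098 on the minus strand, and Ndufv3 at chr17:31519981-31520114 on the plus strand.
Ndufaf4: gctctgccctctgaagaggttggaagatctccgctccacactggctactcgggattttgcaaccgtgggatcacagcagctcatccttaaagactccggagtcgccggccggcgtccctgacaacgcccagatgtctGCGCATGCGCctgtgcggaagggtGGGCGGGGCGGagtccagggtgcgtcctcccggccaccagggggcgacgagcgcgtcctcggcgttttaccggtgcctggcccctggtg
Ndufab1: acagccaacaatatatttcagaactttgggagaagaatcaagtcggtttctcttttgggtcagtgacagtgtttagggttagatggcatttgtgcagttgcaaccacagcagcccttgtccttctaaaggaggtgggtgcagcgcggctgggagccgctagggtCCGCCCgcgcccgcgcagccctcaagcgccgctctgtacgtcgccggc
Ndufv3: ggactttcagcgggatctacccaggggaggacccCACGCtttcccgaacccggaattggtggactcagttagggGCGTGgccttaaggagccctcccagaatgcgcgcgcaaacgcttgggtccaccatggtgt

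The Ndufaf4 stretch held the 10 letters of the NRF1 core, at 113 to 104 bases before the start, and a pair of overlapping SP1 matches between bases 89 and 79. The Ndufab1 stretch held 1 SP1 match on the opposite strand. The Ndufv3 stretch held GCGTG once on each strand; it is shorter than the others because exons of the neighbouring gene Wdr4 cover 116 bases of the window. A match is a description of letters and not a measured binding site.

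Across whole promoter windows (250 bases before to 50 after the start), the NRF1 core with 1 free base was present in 9 of 39 promoters of these genes (23.1%), against 10.7% of the 9749 promoters of genes tested and 4.78% of all 27025 promoters in the table. The 9 genes were Ndufa5, Ndufb4, Ndufs6, Ndufa8, Ndufa11, Ndufa6, Ndufs5, Ndufaf4 and Ndufaf5, of which 8 were tested and 5 were called lower in shFam172a, where 19 of the 39 genes with a promoter were called lower. The exact NRF1 core, which is also counted in the first share, was present in Ndufa11, Ndufaf4 and Ndufaf5 (7.69%, against 2.14% of genes tested and 0.977% of all promoters). AAGATGGCG was present in 5 promoters, those of Ndufs7, Ndufc1, Ndufs6, Ndufs4 and Ndufa9 (12.8%, against 3.29% and 1.49%). The other motifs had shares at or below those of genes tested: 12.8% against 18.3% for CCGGAAG, 51.3% against 64.8% for GGGCGG, 17.9% against 25.9% for ACGTG, and 51.3% against 52.0% for GCGTG. Their shares among all promoters were 9.12%, 35.9%, 19.7% and 32.5%.

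Of the 44 complex I genes tested, 19 fell and 2 rose at an adjusted p under 0.05, and 23 did not pass. Over all 12820 genes tested, 18.6% fell and 17.5% rose by the same rule, so 43.2% of these genes falling is above the background share and 4.55% rising is below it. The fold changes were small: the median log2 fold change was −0.12, against −0.0003 for all genes tested, and 34 of 44 estimates were negative, uncalled ones included. With offsets for transcript length and GC content in the edgeR fit, 14 of the 44 fell, where 2359 of all 12820 genes tested fell. In 19 genes the 3 shFam172a values lay below the 3 shCtrl values and in 2 above, where 23.5% and 22.5% of all genes tested did so. Against a minimum change of 1.2-fold (edgeR's glmTreat), Ndufaf4 was lower and Ndufv3 and Ndufa4l2 were higher, where 1.06% of genes tested were lower and 2.39% higher. In bulk RNA, fewer cells expressing a gene and less RNA per cell cannot be told apart.

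**Figure D1:**
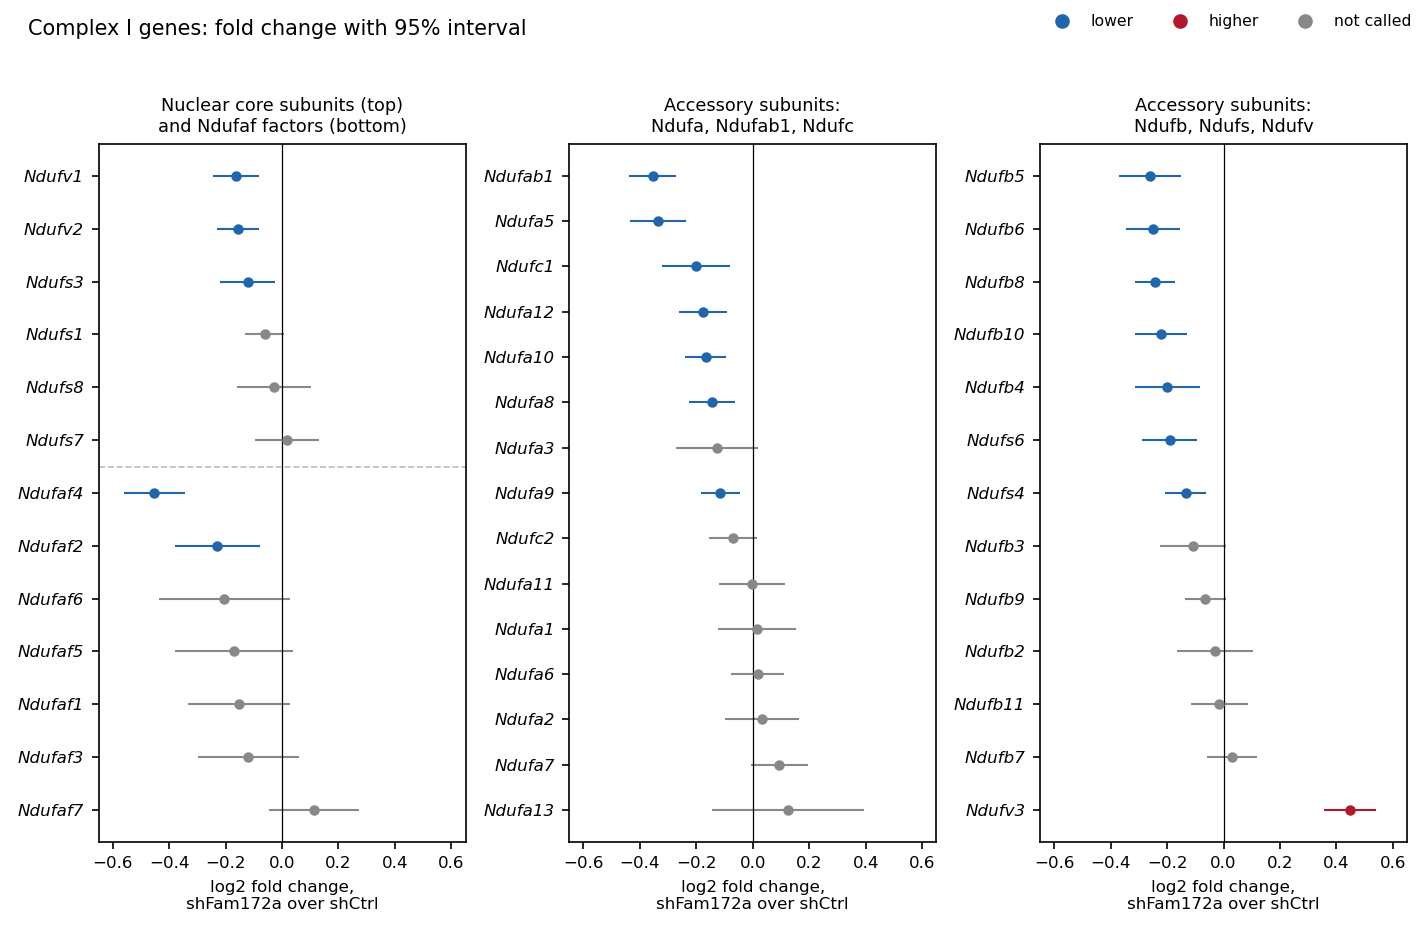
Log2 fold change (shFam172a over shCtrl, horizontal axis) of the subunit and Ndufaf genes described with 95% confidence intervals. Points are coloured by the edgeR call, with Ndufaf4 at −0.45 and Ndufv3 at 0.45 farthest from 0.

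The nuclear core subunits, which carry the redox centres, had small changes, and 3 of 7 fell (median −0.07). With length and GC offsets 1 of the 7 fell, Ndufv1, where 2359 of all 12820 genes tested fell. Ndufv1, which binds NADH and FMN, stood at 100.5, 109 and 101 CPM in shCtrl and at 93.9, 92.6 and 91.7 in shFam172a. Its groups did not overlap, and the log2 fold change was −0.16 ± 0.0400 (SE, edgeR adjusted p = 0.00137). Ndufv2, an iron-sulfur protein beside it, stood at 129, 130.2 and 125 CPM in shCtrl and at 117, 118 and 110.4 in shFam172a. Here too each shFam172a library lay below each shCtrl library, with a log2 fold change of −0.16 ± 0.0372 (edgeR adjusted p = 0.000972). This call was lost with length and GC offsets (−0.08, edgeR adjusted p = 0.0751).

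Ndufs3, a structural subunit of the Q module, was near the threshold. It stood at 66.9, 74.2 and 64.1 CPM in shCtrl and at 62.0, 62.3 and 64.6 in shFam172a, so the groups overlapped and replicate 2 of shCtrl was the highest. The log2 fold change was −0.12 ± 0.0484 (edgeR adjusted p = 0.0456), and without replicate 2 of shCtrl it was −0.06 with an edgeR adjusted p of 0.464. The call was also lost without replicate 1 or replicate 2 of shFam172a (edgeR adjusted p = 0.107 and 0.113). In Ndufs3, 19.9% of the possible 100-base stretches of the coding transcript chosen for it also occur in Gm12251.

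The other 4 core subunits did not pass the test, and 3 of them are described. Ndufs1, the iron-sulfur subunit that relays electrons out of the N module, stood at 145, 155 and 146 CPM against 146, 141 and 141, with overlapping groups (−0.06 ± 0.0349, edgeR adjusted p = 0.169). Ndufs8, which holds iron-sulfur clusters at the junction of the arms, stood at 27.1, 29.4 and 27.9 CPM against 26.7, 28.3 and 27.6 (−0.03 ± 0.0649, edgeR adjusted p = 0.764).

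Ndufs7, which holds the last iron-sulfur cluster before ubiquinone, was the 1 core subunit with a positive estimate. Its values were 38.1, 39.5 and 36.8 CPM in shCtrl and 37.6, 38.5 and 39.8 in shFam172a (0.02 ± 0.0563, edgeR adjusted p = 0.830). The 95% interval of its log2 fold change ran from −0.10 to 0.13, so a fall of the size seen for Ndufv1 lies outside it.

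Accessory subunits formed the largest group of calls: 14 of the 28 tested fell, 1 rose and 13 did not pass (median −0.12). With length and GC offsets 11 fell and the median was −0.07. Ndufab1, the mitochondrial acyl carrier protein that also serves fatty acid synthesis in the organelle, had the largest fall of any subunit. It stood at 100.1, 110.0 and 106 CPM in shCtrl (105 ± 4.97, SD, n = 3) and at 81.8, 84.5 and 81.1 in shFam172a (82.5 ± 1.83). The groups lay well apart, with a log2 fold change of −0.36 ± 0.0410 (SE, edgeR adjusted p = 6.68e-09). Of the 100-base stretches of the coding transcript chosen for it, 9.497% also occur in Ndufab1-ps, Gm4459 or Gm44986. Pairs aligned to more than 1 place had a row of their own, with 9.58% to 10.4% of each library. Whether any of them were also counted to a gene is not given in the sources used here.

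Ndufa5, a Q module subunit bound to the core, stood at 66.8, 71.7 and 68.5 CPM in shCtrl and at 56.9, 56.5 and 50.9 in shFam172a. All 3 shFam172a libraries were below all 3 shCtrl libraries, replicate 3 lowest, and the log2 fold change was −0.34 ± 0.0492 (edgeR adjusted p = 9.06e-07). Ndufa5 lay on chr6:24518666-24528013 (GRCm38, minus strand).

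Ndufb5 and Ndufb6, both of the distal membrane arm, were next. Ndufb5 stood at 90.3, 100.7 and 82.6 CPM in shCtrl and at 81.1, 74.4 and 73.5 in shFam172a (−0.26 ± 0.0536, edgeR adjusted p = 0.000363). The lowest shCtrl library lay just above the highest shFam172a library. Ndufb6 stood at 62.5, 69.8 and 65.1 CPM against 55.2, 56.5 and 54.6 (−0.25 ± 0.0478, edgeR adjusted p = 6.47e-05), with no overlap. Both genes overlap exons of a neighbour on the opposite strand (Mrpl47 for Ndufb5, Smim27 for Ndufb6). The strand setting of the counting is not given in the sources used here, so reads of each pair cannot be told apart with certainty.

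The other 10 accessory subunits that fell ranged from −0.24 (Ndufb8) to −0.12 (Ndufa9): Ndufb8, Ndufb10, Ndufc1, Ndufb4, Ndufs6, Ndufa12, Ndufa10, Ndufa8, Ndufs4 and Ndufa9. Of the 14 accessory subunits that fell, Ndufb4 alone had overlapping groups, and 33.4% of its 100-base stretches also occur in Ndufb4c. Single libraries decided a few of these calls: without replicate 2 of shCtrl, Ndufb4 had an edgeR adjusted p of 0.149 and Ndufa9 of 0.132, without replicate 2 of shFam172a Ndufa9 had 0.0691, and without replicate 3 of shCtrl Ndufc1 had 0.0620. Without replicate 2 of shFam172a, Ndufa3 also passed as lower (−0.23, edgeR adjusted p = 0.0120). Ndufa11 and Ndufb11, both of the membrane arm, were closest to no change. Ndufa11 stood at 39.9, 44.2 and 39.3 CPM in shCtrl and at 43.5, 39.8 and 40.1 in shFam172a (log2 fold change −0.0023 ± 0.0575, edgeR adjusted p = 0.981). Ndufb11 stood at 56.5, 56.6 and 54.0 CPM against 57.7, 56.4 and 51.5 (−0.01 ± 0.0506, edgeR adjusted p = 0.853). In both genes the groups overlapped throughout.

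Ndufv3, a small accessory subunit at the tip of the N module beside Ndufv1 and Ndufv2, moved the other way. It stood at 72.4, 73.8 and 82.9 CPM in shCtrl (76.4 ± 5.69, SD, n = 3) and at 105, 108 and 99.3 in shFam172a (104 ± 4.42). Each shFam172a library exceeded each shCtrl library, and the log2 fold change was 0.45 ± 0.0454 (SE, edgeR adjusted p = 3.65e-10; against 1.2-fold, adjusted p = 0.00124). Its neighbours in the module, Ndufv1 and Ndufv2, fell by 0.16 each on the log2 scale. GENCODE M21 gives Ndufv3 (chr17:31520115-31531331, plus strand) 3 coding transcripts of 493 to 1582 bases, which gene-level counts do not separate.

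Ndufs5, an accessory subunit of the membrane arm, was listed at 0 counts in all 6 libraries. With 103089799 gene counts in all, a count of 0 allows up to 0.0291 CPM over the 6 libraries, or 0.267 CPM in the smallest one, by counting error only. Of its 100-base stretches 19.8% also occur in BC002163. Since the other 35 subunits were counted at 307 counts or more in every library, the value of Ndufs5 was used for no comparison.

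**Figure D2:**
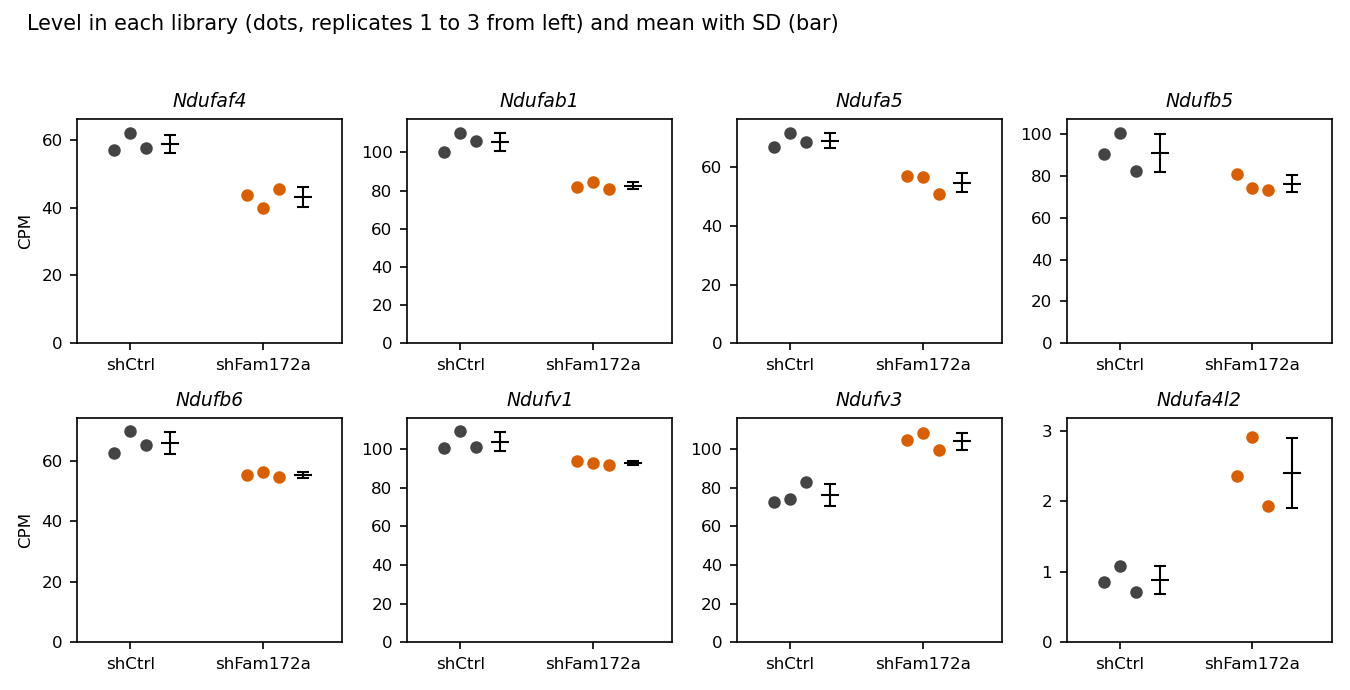
CPM of 8 genes in each library (dots, replicates 1 to 3 from left) with the mean and SD beside them, on axes that start at 0. Ndufaf4, Ndufab1, Ndufa5, Ndufb5, Ndufb6 and Ndufv1 are lower in all 3 shFam172a libraries, whereas Ndufv3 and Ndufa4l2 are higher in all 3.

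Grouped by position in the enzyme, calls were spread over all modules. In the N module 5 of 10 genes fell and 1 rose (median −0.10), and in the Q module 3 of 6 fell (median −0.09). In the membrane arm next to the Q module 3 of 8 tested genes fell (median −0.10), and in the distal membrane arm, made here of the Ndufb subunits, 5 of 10 fell (median −0.15). Core subunits summed to 769, 791 and 751 CPM in shCtrl and to 725, 728 and 715 in shFam172a, or 93.8% of the shCtrl mean. Accessory subunits came to 92.8% of the shCtrl mean, and to 94.7% without replicate 3 of shFam172a. By module the sums were 96.6% (N), 92.9% (Q), 93.6% (proximal membrane arm) and 90.5% (distal membrane arm), and without that library 98.6%, 93.2%, 95.9% and 92.1%. No test was made between modules.

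**Figure D3:**
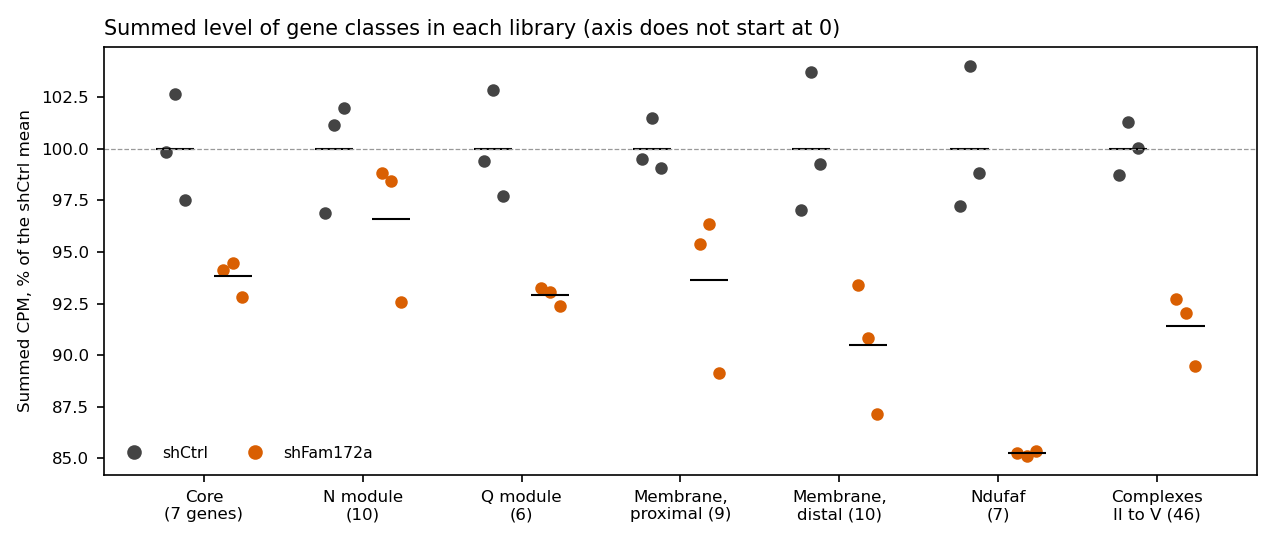
Summed CPM of each class in each library, as a percentage of the shCtrl mean (vertical axis, which does not start at 0), with bars at the group means. The 3 shFam172a libraries nearly coincide for the Ndufaf genes at 85.3%, whereas replicate 3 of shFam172a, drawn rightmost, is the lowest in every other class drawn.

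Replicate 3 of shFam172a was the lowest of its group for 25 of 28 tested accessory subunits, but for 3 of 7 core subunits and 3 of 7 Ndufaf genes. Its part in the accessory values was measured by leaving it out: all 14 accessory falls and the rise of Ndufv3 remained. Ndufa7 and Ndufa13 then also passed as higher, at log2 fold changes of 0.16 (edgeR adjusted p = 0.00555) and 0.25 (edgeR adjusted p = 0.000787). These genes were named after their values were seen. Their values in shFam172a were 83.8, 86.5 and 73.8 CPM for Ndufa7 and 45.0, 45.4 and 34.0 for Ndufa13, so that replicate 3 lay within the shCtrl range for Ndufa7 and below it for Ndufa13. Ndufa13 shares 24.0% of its 100-base stretches with the overlapping gene Tssk6.

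Of the 7 Ndufaf assembly factors 2 fell, none rose and 5 did not pass (median −0.17). The share that fell was 28.6%, against 18.6% of all genes tested. Ndufaf4, which works with Ndufaf3 on the early Q module intermediate, had the largest fall of the 44 genes tested. It stood at 56.8, 61.8 and 57.7 CPM in shCtrl (58.8 ± 2.68, SD, n = 3) and at 43.7, 39.8 and 45.6 in shFam172a (43.0 ± 2.93). The highest shFam172a library lay clearly below the lowest shCtrl library, with a log2 fold change of −0.45 ± 0.0537 (SE, edgeR adjusted p = 1.22e-08). Against a 1.2-fold change the edgeR adjusted p was 0.00484, a call that was lost when replicate 2 of either group was left out.

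Ndufaf2, a late factor related in sequence to the accessory subunit Ndufa12, stood at 24.6, 24.3 and 28.4 CPM in shCtrl and at 20.6, 23.2 and 21.9 in shFam172a. The groups did not overlap, and the log2 fold change was −0.23 ± 0.0738 (edgeR adjusted p = 0.0133). The call was lost without replicate 3 of shCtrl (edgeR adjusted p = 0.158) and without replicate 1 of shFam172a (edgeR adjusted p = 0.0656). Exons of B230220B15Rik overlap Ndufaf2 on the opposite strand.

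The other 5 did not pass the test, and their groups overlapped. Ndufaf6, an early factor, stood at 9.60, 10.6 and 10.2 CPM in shCtrl against 8.99, 9.78 and 7.60 in shFam172a (−0.20 ± 0.114, edgeR adjusted p = 0.166). Ndufaf5, which hydroxylates an arginine of Ndufs7, stood at 12.2, 15.0 and 15.3 CPM against 10.8, 13.8 and 13.3 (−0.17 ± 0.103, edgeR adjusted p = 0.207). Ndufaf1, part of the membrane arm assembly complex, stood at 14.4, 17.4 and 15.8 CPM against 15.0, 13.8 and 14.2 (−0.15 ± 0.0892, edgeR adjusted p = 0.188). These 3 estimates were as large as those of many called subunits, but with counts from 112 to 324 per library their standard errors were wider.

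Ndufaf3, the partner of Ndufaf4, stood at 18.5, 19.7 and 15.4 CPM in shCtrl and at 18.1, 16.0 and 15.6 in shFam172a (−0.12 ± 0.0887, edgeR adjusted p = 0.313). Its 95% interval, −0.30 to 0.06, does not reach the Ndufaf4 estimate. Ndufaf7, a methyltransferase of the mitochondrial matrix, stood at 21.1, 19.2 and 17.1 CPM against 20.9, 21.3 and 20.0 (0.11 ± 0.0791, edgeR adjusted p = 0.282). Summed over the 7 genes, the level was 157, 168 and 160 CPM in shCtrl and 138, 138 and 138 in shFam172a, or 85.3% of the shCtrl mean. The groups of sums did not overlap, and Ndufaf4 alone accounted for 58.8 and 43.0 CPM of the group means.

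Assembly factors with other names were counted from a separate list of 11 genes, of which 3 fell, none rose and 8 did not pass (median −0.09). The share that fell was 27.3%, against 18.6% of all genes tested. Lyrm2, a LYR-motif protein, stood at 12.3, 12.9 and 13.6 CPM in shCtrl and at 10.3, 10.7 and 11.6 in shFam172a (−0.25 ± 0.0981, edgeR adjusted p = 0.0421). Timmdc1, a membrane arm assembly factor, stood at 36.1, 36.3 and 34.8 CPM against 31.1, 30.8 and 30.3 (−0.22 ± 0.0591, edgeR adjusted p = 0.00334). Acad9, an acyl-CoA dehydrogenase that also assembles complex I together with Ndufaf1, stood at 66.4, 73.3 and 67.6 CPM against 60.1, 57.0 and 62.7 (−0.21 ± 0.0484, edgeR adjusted p = 0.000747). In each of these genes the groups did not overlap.

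Ndufa4l2 was the member with the largest change. It is a paralogue of the complex IV subunit Ndufa4 and is known from hypoxic cells. Its counts were 10, 14 and 8 in shCtrl and 51, 68 and 43 in shFam172a, or 0.857, 1.09 and 0.709 CPM against 2.36, 2.92 and 1.93. The lowest shFam172a value was above the highest shCtrl value, and the log2 fold change was 1.42 ± 0.287 (SE, edgeR adjusted p = 0.000130; against 1.2-fold, adjusted p = 0.00275). The level remained low: Ndufa4 itself stood at 174, 183 and 181 CPM in shCtrl and at 186, 180.1 and 163 in shFam172a, with overlapping groups (−0.03 ± 0.0385, edgeR adjusted p = 0.642). For 100 counts of Ndufa4 there were 0.493, 0.595 and 0.391 counts of Ndufa4l2 in shCtrl and 1.27, 1.62 and 1.19 in shFam172a.

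Levels were compared between genes per kilobase of transcript, using the median length of a gene's coding transcripts in GENCODE M21. In shCtrl the tested accessory subunits ranged from 12.4 (Ndufb2) to 219 CPM per kilobase (Ndufb9), with a median of 105. The core subunits had a median of 65.4, with Ndufs8 the lowest at 28.7. The Ndufaf genes had a lower median of 12.02 and ranged from 8.59 (Ndufaf7) to 41.7 (Ndufaf2), which overlaps the subunits. All of them but Ndufaf2 lay at 16.2 or less, below every tested subunit except Ndufb2. The order is sensitive to the transcript used: Ndufb2 was at 6.82 CPM per kilobase with its longest coding transcript and at 65.5 with its shortest, and Ndufv3 at 48.3 and 155. Ndufa4 reached 390.2 CPM per kilobase and Ndufa4l2 0.948.

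**Figure D4:**
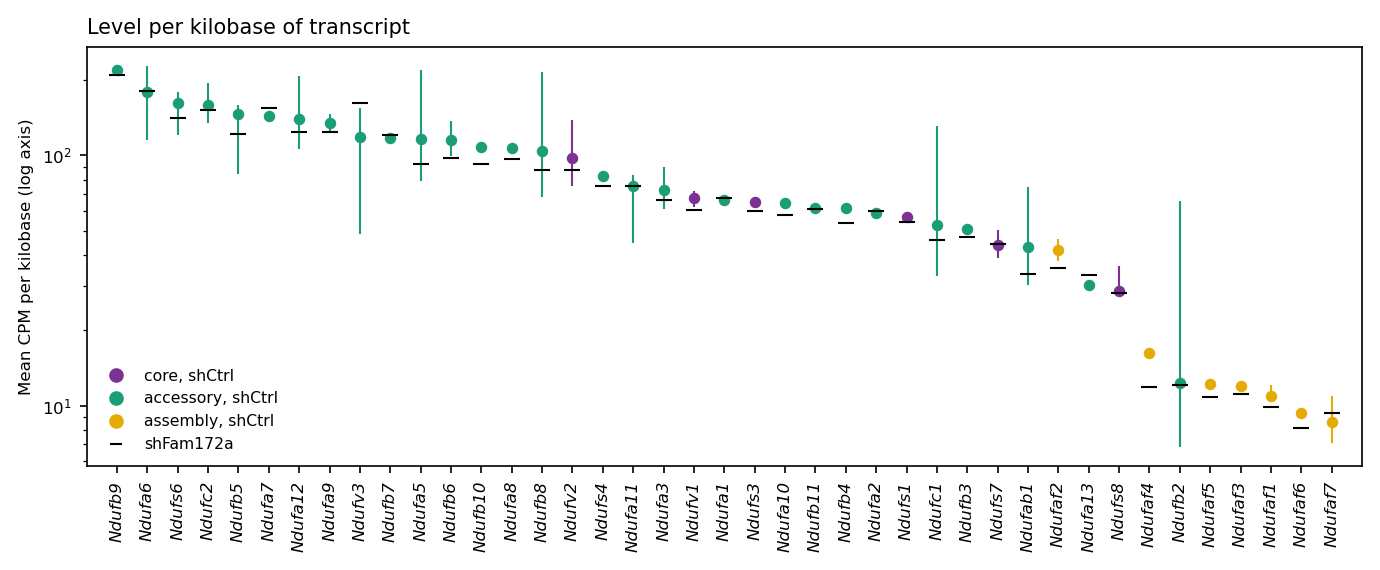
Mean CPM per kilobase of coding transcript (log axis) of the subunit and Ndufaf genes described in shCtrl (coloured points) and shFam172a (dashes), ordered by the shCtrl level. Vertical lines span the values with the longest and the shortest coding transcript. The points of the Ndufaf genes lie between 8.59 and 41.7, and all but Ndufaf2 lie below every subunit drawn except Ndufb2.

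Subunit transcripts are short, and length moved with the fold change across all genes. Among the 2553 tested genes with the shortest transcripts (up to 1513 bases), 22.2% fell, 10.3% rose and the median log2 fold change was −0.04. Among the 2551 with the longest transcripts 12.3% fell, 30.6% rose and the median was 0.05. The group of shortest transcripts held 35 of the 44 tested complex I genes, of which 14 fell. With the length and GC offsets the class medians were −0.06 for core, −0.07 for accessory and −0.12 for Ndufaf genes. Ndufv2, Ndufs3, Ndufs4, Ndufa9 and Ndufc1 lost their call in that fit.

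The other nuclear-encoded subunits of the chain served as the nearest comparison. Of 43 tested genes of complexes II to V, 28 fell (65.1%), 4 rose (9.30%) and 11 did not pass (median −0.14). The 35 tested complex I subunits had 17 falls (48.6%), 1 rise (2.86%) and 17 that did not pass (median −0.12). The shares of all genes tested were 18.6% falling and 17.5% rising. With length and GC offsets the median of complexes II to V was −0.13, against −0.06 for core and −0.07 for accessory subunits. The summed level of complexes II to V was 91.4% of the shCtrl mean, against 93.1% for the complex I subunits. Without replicate 3 of shFam172a these sums were 92.4% and 94.6%. No test was made between these lists, so the falls described here are not shown to be particular to complex I.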

How the data were processed

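The labels describe 3 ADV-shCtrl and 3 ADV-shFam172a cultures of Neuro2a cells, with TRIzol RNA and paired-end libraries. The authors deposited whole-number counts for each gene symbol, without normalization. Per the submitters' processing notes, HISAT2 2.0.5, HTSeq and mm10 were used; which annotation and strand setting went into the counting is not given in the sources used here. Rows that name no gene (33.5% to 37.6% of each library) entered neither library sizes nor tests.

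Counts were fitted with edgeR 4.0.16 in R 4.3.3 (filterByExpr, TMM, robust quasi-likelihood test, two-sided). Group was the sole term, and Benjamini-Hochberg adjustment ran over all 12820 genes tested at a threshold of 0.05. SE is the log2 fold change divided by the square root of F. A prior count of 2 was used for log CPM values (replicate correlations, length and GC offsets) and was not set in the fit. Of the steps described here, only the edgeR fit was tested on simulated counts. Alternatives were other scalings, no filter, DESeq2 1.42.0, thinned counts, a replicate block, length and GC offsets, and leaving out each library.

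The members and lists were chosen with earlier results of these data known. Values per sample were given for Ndufa4, Ndufa4l2, the core subunits, the Ndufaf genes, and of the accessory subunits the 4 largest falls, up to 4 largest rises and the 2 closest to 0. Values of 1 core subunit and 2 marker genes are not reported here. Of other genes, called assembly factors and Fam172a were named; markers and complex IV isoforms named beside them were chosen after their values were seen. Intervals for counts of 0 cover counting error only. GENCODE M21 (GRCm38, the build mm10 names) gave lengths and overlaps for all 45 genes. The 100-base stretches of a gene came from its chosen coding transcript, the form marked principal where there was one. They were searched in the GENCODE transcripts of other genes.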

Additional observations from a re-analysis of the deposited data

How the results depend on the processing

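The directions of the class medians and of the 21 called complex I genes held in all 15 alternatives, and 14 of the 21 calls also held in each of them. With length and GC offsets, without and with the replicate block, core subunits called lower were 1 instead of 3. With DESeq2, Ndufaf genes called lower were 1 instead of 2, since Ndufaf2 had an adjusted p of 0.0501. With counts thinned to the smallest library, 0 genes were lower against a 1.2-fold change instead of 1 (18 were lower against no change); the cause was not tested. Leaving out 1 library at a time gave 16 to 19 genes called lower and 2 to 4 called higher, with 12 to 14 accessory subunits lower and 1 to 3 higher, 2 to 3 core subunits lower, 1 to 2 Ndufaf genes lower and 0 to 2 genes lower against a 1.2-fold change. The highest counts of rises came without replicate 3 of shFam172a. Ndufs3 kept its call in 4 of 15 alternatives.

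The labels number replicates 1 to 3 in both groups. Same-numbered samples did not deviate together (correlations of -0.0054, -0.0038 and -0.0096). What else they shared is not in the labels, and these correlations cannot show it. With the replicate block, 18 complex I genes were lower and 2 higher, and 2150 of all genes were higher and 2318 lower, instead of 2241 and 2386. The lower depth of shCtrl limits the precision for genes of few counts, such as Ndufa4l2 with 8 to 14 counts and Ndufaf6.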

Other observations

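Alternative isoforms of complex IV subunits in the list of complexes II to V did not share a direction, and are named after their values were seen. Cox4i2, the alternative form of complex IV subunit 4, stood at 5.92, 3.51 and 4.52 CPM in shCtrl and at 17.6, 16.7 and 16.5 in shFam172a, with a log2 fold change of 1.87 ± 0.123 (SE, edgeR adjusted p = 2.73e-15). Its common counterpart Cox4i1 stood at means of 411 and 387 CPM (-0.08 ± 0.0319, edgeR adjusted p = 0.0340). Cox7a1, a complex IV isoform typical of muscle, stood at 2.66, 1.79 and 2.39 CPM in shCtrl and at 5.00, 5.49 and 4.99 in shFam172a (1.19 ± 0.184, edgeR adjusted p = 2.31e-06). Its counterpart Cox7a2 stood at means of 86.4 and 71.7 CPM (-0.27 ± 0.0459, edgeR adjusted p = 1.01e-05). Like Ndufa4l2, Cox4i2 and Cox7a1 remained far below these counterparts in every library. Cox7b2, an isoform of Cox7b, fell from a mean of 22.5 to 18.6 CPM (-0.28 ± 0.0840, edgeR adjusted p = 0.00826). Cox6a2, the muscle form of Cox6a1, stood at means of 1.33 and 1.98 CPM and did not pass (0.56 ± 0.266, edgeR adjusted p = 0.0972).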
